A study of Mus musculus with 6 samples.

Results

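The 902 regions described here were open in all 6 libraries of an ATAC-seq study of mouse regulatory T cells (Tregs) and had taller peaks in the libraries without Il33. ATAC-seq maps accessible chromatin with the Tn5 transposase, which inserts sequencing adapters into open DNA. The study set wild-type (WT) mice of the strain C57BL6 against il33-/- mice in the C57BL6 background (KO), with 3 libraries of each genotype. All mice carried B16.F10 melanoma, a transplantable mouse tumour line, from 300000 cells given under the skin, and CD4+CD25+GITR+ cells, labelled Foxp3+ Tregs, were sorted from the tumour-draining lymph nodes on day 14. The labels do not say whether the numbered replicates (2, 4 and 6 of WT, and 1, 2 and 4 of KO) came from separate mice, so the spread between libraries given here may be technical. They state no age, and the sources used here do not describe the construct of the Il33 allele. Overlapping peaks of the 6 lists were merged into 64817 regions, of which 29419 held a peak in every list and 28808 of these lay on autosomes. In each library the height of the tallest peak of a region was divided by the library's median height over the 28808 shared regions. A region was taken when its lowest scaled KO height exceeded its highest scaled WT height and the KO mean was at least 1.3 times the WT mean. The heights themselves therefore chose the regions, and the KO to WT ratios given here are descriptions with no test.

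Interleukin-33 is a cytokine released by stressed or damaged barrier and stromal cells, and its receptor ST2, encoded by Il1rl1, is carried by many Tregs of non-lymphoid tissues and by activated Tregs. ST2 signals through MyD88 and the IKK complex to NF-kB factors. Accessible regions of T cells fall into promoters, which are broadly open in many cell types, and distal elements within or between genes, many of them enhancers that vary with cell state. The height of an ATAC-seq peak counts overlapping tags at its summit, so it depends on how many cells were open there, on the sequencing depth and on the share of tags that fall into open chromatin. In these bulk libraries fewer open cells and less signal per cell cannot be told apart.

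Many of the tallest of the 902 regions were promoters, and their sequences are shown first because a short promoter element, the CCAAT box bound by the factor NF-Y, was frequent in them. Each sequence is the window from 250 bases before to 50 bases after an annotated start in RefSeq (GRCm38.p6, the assembly of mm10), written 5′ to 3′ on the strand of the gene, with CCAAT and its reverse complement ATTGG in capitals. Cic (chr7:25267449-25267748, plus strand) encodes the transcriptional repressor Capicua, Kat7 (chr11:95310197-95310496, minus strand) a histone acetyltransferase, Cnot3 (chr7:3645019-3645318, plus strand) a subunit of the CCR4-NOT mRNA deadenylase complex and Hnrnpc (chr14:52103972-52104271, minus strand) a nuclear RNA-binding protein. Runx1 (chr16:92826025-92826324, minus strand) encodes a transcription factor that partners Foxp3, and its start shown here lay in a region of middle to high height. Syngr1 (chr15:80091084-80091383, plus strand), which encodes a synaptic vesicle protein, is shown as a promoter of lower height with no CCAAT box.
Cic: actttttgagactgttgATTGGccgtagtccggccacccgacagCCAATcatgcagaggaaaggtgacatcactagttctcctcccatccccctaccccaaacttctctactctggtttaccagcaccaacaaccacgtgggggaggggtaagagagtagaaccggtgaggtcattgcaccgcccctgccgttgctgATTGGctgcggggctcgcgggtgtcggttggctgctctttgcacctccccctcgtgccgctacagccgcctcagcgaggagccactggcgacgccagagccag
Kat7: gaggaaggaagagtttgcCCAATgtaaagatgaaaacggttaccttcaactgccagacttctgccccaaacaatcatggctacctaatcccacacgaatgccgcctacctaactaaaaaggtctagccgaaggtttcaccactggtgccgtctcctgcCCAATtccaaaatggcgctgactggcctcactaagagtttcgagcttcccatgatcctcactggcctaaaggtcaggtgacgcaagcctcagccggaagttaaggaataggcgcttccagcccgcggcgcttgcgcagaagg
Cnot3: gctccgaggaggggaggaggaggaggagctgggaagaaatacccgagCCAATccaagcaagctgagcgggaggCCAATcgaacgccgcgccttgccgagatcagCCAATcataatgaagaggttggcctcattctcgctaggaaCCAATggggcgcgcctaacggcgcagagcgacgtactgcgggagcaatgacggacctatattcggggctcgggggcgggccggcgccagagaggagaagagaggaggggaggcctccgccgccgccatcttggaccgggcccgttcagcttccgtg
Hnrnpc: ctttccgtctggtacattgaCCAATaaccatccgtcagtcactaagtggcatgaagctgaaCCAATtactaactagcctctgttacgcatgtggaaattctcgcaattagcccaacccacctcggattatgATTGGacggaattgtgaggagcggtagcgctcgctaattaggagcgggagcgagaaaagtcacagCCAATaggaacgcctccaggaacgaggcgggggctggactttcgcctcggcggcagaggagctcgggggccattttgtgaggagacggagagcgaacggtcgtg
Runx1: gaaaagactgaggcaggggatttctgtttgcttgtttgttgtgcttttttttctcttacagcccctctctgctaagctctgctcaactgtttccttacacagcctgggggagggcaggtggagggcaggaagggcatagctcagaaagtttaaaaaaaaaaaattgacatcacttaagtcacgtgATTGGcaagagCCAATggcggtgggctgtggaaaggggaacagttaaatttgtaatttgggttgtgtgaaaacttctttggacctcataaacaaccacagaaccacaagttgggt
Syngr1: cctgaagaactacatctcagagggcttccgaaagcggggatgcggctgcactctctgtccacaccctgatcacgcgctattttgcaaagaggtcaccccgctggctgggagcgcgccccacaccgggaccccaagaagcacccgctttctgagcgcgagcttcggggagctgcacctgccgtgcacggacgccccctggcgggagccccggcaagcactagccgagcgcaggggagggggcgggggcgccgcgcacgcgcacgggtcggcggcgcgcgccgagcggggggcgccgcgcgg
The window held 3 CCAAT boxes at Cic, 2 at Kat7, 4 at Cnot3, 4 at Hnrnpc, 2 at Runx1 and 0 at Syngr1. Not all of the tallest regions held the box, since the Spag7 window, also among the 8 tallest, held 0. Counted in bases from the start, negative before it, the median peak summit of the 6 libraries lay at 257 at Cic, -82 at Kat7, -200 at Cnot3, -261 at Hnrnpc, -90 at Runx1 and -34 at Syngr1.

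The genotypes differed in depth. Tags kept per library, in mega (M), numbered 12.9 to 15.2 in WT (13.7 ± 1.29, SD, n = 3) and 4.72 to 10.3 in KO (7.75 ± 2.82, SD, n = 3), and duplicates made up 14.2% ± 0.447 and 8.79% ± 0.368 of all tags. The median height over the shared regions was 46, 47 and 47 tags in WT replicates 2, 4 and 6 and 27, 20 and 30 tags in KO replicates 1, 2 and 4, so that 1 tag equalled 5% of the median in KO replicate 2. The tallest peak of each whole list, shared or not, reached 4.02 to 4.15 times the library's median over the shared regions in WT. In KO it reached 4.50 to 5.35 times, more in every KO library than in any WT library. Depth, duplicate share and this multiple of the median separated the libraries in the same way as genotype did, so they and genotype cannot be told apart in any height reported here. All 7 Treg markers checked (Foxp3, Il2ra, Ctla4, Ikzf2, Tnfrsf18, Cd4 and Cd3e) had a peak within 1 kb of a gene end in every WT library. In KO, 5 did in every library, Ikzf2 had none in KO replicate 2 and Tnfrsf18 none in KO replicate 4. Among the B cell markers, Ms4a1 and Pax5 had no peak in any library, and Cd79a and Ebf1 together had 4 to 5 peaks in WT and 1 to 3 in KO. Of 5 markers of CD8 T and NK cells, 1 (Cd8b1) had a peak in all 6 libraries and Ncr1 and Nkg7 had none, with 1 to 2 peaks in all per library in both genotypes. Among 5 myeloid markers Lyz2, Csf1r and Itgam had none, while the other 2 had a peak in all 6 libraries (2 to 3 peaks in all per WT and 2 per KO library). Among 6 melanoma markers Tyr, Tyrp1, Dct and Sox10 had none, while the other 2 had a peak in all 6 libraries (2 peaks per library in both). The part of other cells in the results was not tested.

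The rule took 3.13% of the shared regions, while the mirrored rule, with WT in place of KO, took 860 (2.99%). Without the minimum ratio, every KO height exceeded every WT height in 4258 regions (14.8%) and every WT height exceeded every KO height in 1859 (6.45%). The 902 KO-taller regions had ratios of KO to WT mean scaled height between 1.3 and 2.28 with a median of 1.37, against a median of 1.03 over all shared regions. Most lay close to the minimum, since 165 reached a ratio of 1.5 and 4 a ratio of 2. In unscaled tags, the KO mean exceeded the WT mean in 11 of the 902, and in 0 of them did every KO library exceed every WT library. The word taller thus refers to height relative to the typical shared region of the same library. Just inside the minimum lay regions in the gene bodies of Tmc3 and Srpk2, each at a ratio of 1.3, and just outside it regions at the gene ends of Ell and Aplp1, also at 1.3 when rounded.

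The rule took the largest shares of regions at both extremes of height, although most KO-taller regions lay between them. When the shared regions were ordered by mean scaled height over the 6 libraries and divided into 10 bins of equal size, the rule took 6.28% of bin 1 (the lowest), 2.42% of bins 2 to 9 and 5.66% of bin 10 (the tallest). This placed 181 KO-taller regions in bin 1, 558 in bins 2 to 9 and 163 in bin 10. The mirrored rule took 159 regions in bin 1, 218 in bin 2 and 0 in bins 9 and 10. The median ratio of all shared regions, whichever rule they met, was 1.02 in bin 1, 0.968 in bin 2, 1.08 in bin 9 and 1.16 in bin 10. The tall KO-taller regions therefore stand in a bin where the typical shared region was already higher in KO on this scale.

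**Figure D1:**
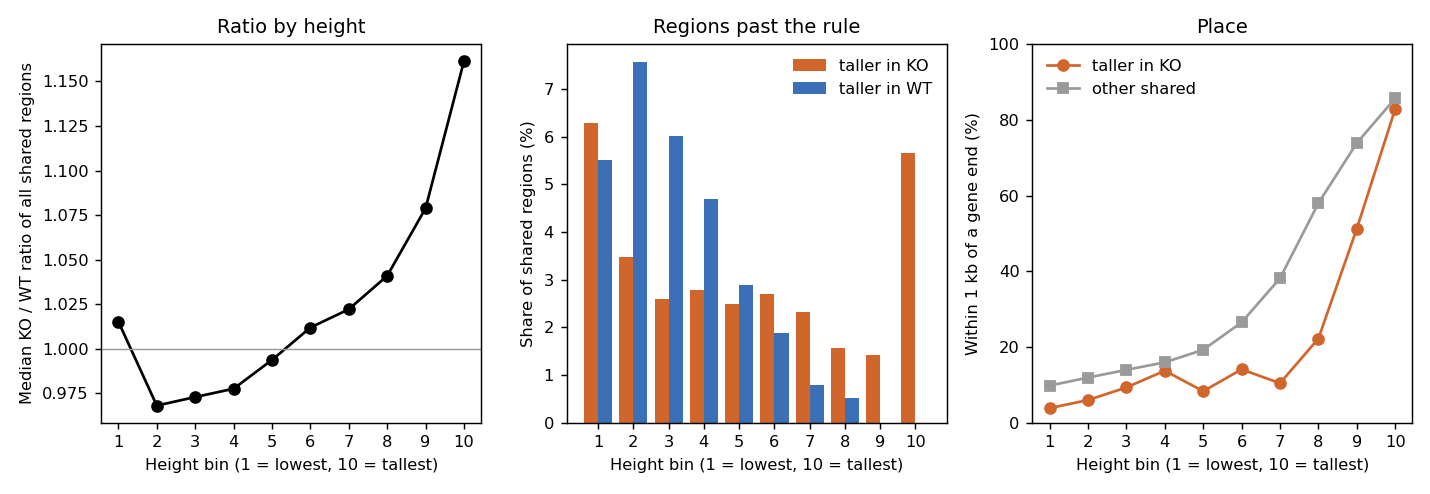
For 10 bins of mean scaled height, the median ratio of KO to WT scaled height of all shared regions (left), the percentage of shared regions taken by the rule and by its mirror (middle), and the percentage within 1 kb of a gene end (right). The median ratio reaches 1.16 in bin 10, and the rule takes its largest shares in bin 1 (6.28%) and bin 10 (5.66%). The KO-taller regions lie at gene ends less often than the others in each bin.

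In libraries whose heights had no part in the choice, regions chosen as KO-taller were higher in KO more often than all shared regions were. Each of the 9 pairs of 1 WT and 1 KO library was left out in turn, the rule was applied to the other 4 libraries, and the heights of regions with a peak in all 6 lists were read in the pair left out. These choices gave 1604 to 2223 regions, of which 58.5% to 74.6% (median 71.1%) were higher in the KO library of the pair left out, against 53.2% to 58.7% (median 56.3%) of all shared regions. The ranges overlapped slightly, but within each pair the share of the chosen regions was the higher one. Their median ratio in the pair left out was 1.11, the median over the 9 pairs, against 1.04 for all shared regions, so most of the ratio of at least 1.3 used for the choice was not seen again. In bins 2 to 9 the share was 55.0% to 71.3% (median 67.0%) against 49.1% to 55.2%, and in bin 1 it was 54.2% to 71.3% (median 65.3%) against 46.1% to 56.0%. In bin 10 it was 84.6% to 98.9% (median 95.5%), where 74.4% to 96.1% (median 91.4%) of all shared regions were higher in KO as well. Regions chosen as WT-taller were higher in the KO library left out in 33.5% to 39.7%. The left-out libraries did help to define the shared regions and the height bins. The pairs share libraries, so the 9 values are not independent. The libraries left out differ in depth like the rest, so these shares cannot tell genotype from depth.

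**Figure D2:**
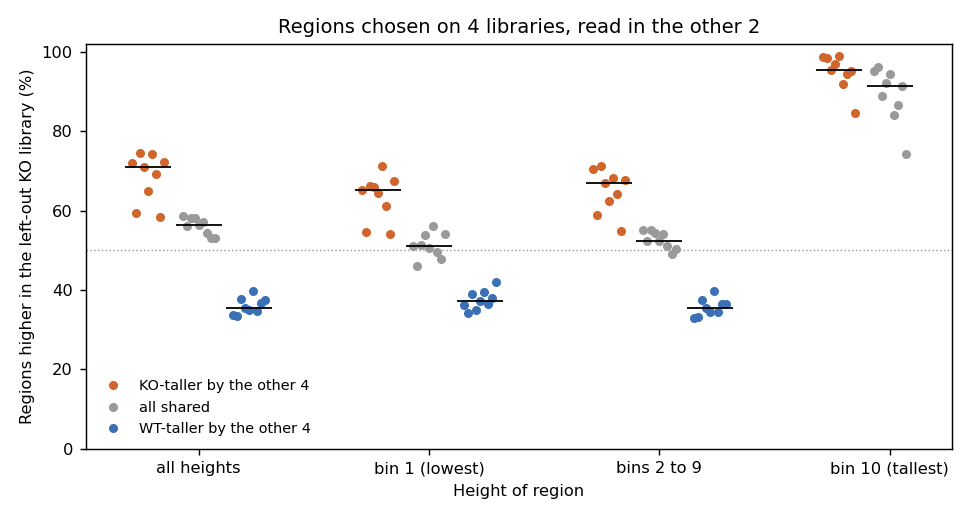
Percentage of regions with a higher scaled height in the left-out KO library than in the left-out WT library, for regions chosen on the other 4 libraries and for all shared regions, 1 point for each of the 9 pairs. Over all heights, regions chosen as KO-taller lie between 58.5% and 74.6% and all shared regions between 53.2% and 58.7%, with the KO-taller share higher in each of the 9 pairs, and in the tallest bin both sets lie at 74.4% or above. Black lines are medians, and WT-taller regions are not drawn in bin 10, which held 0 or 1 of them.

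The largest ratio was found at Rab4a, which encodes a small GTPase of endosomal recycling. The region spans a gene end of Rab4a (chromosome 8, 123805573 to 123806357) and had heights of 16, 22 and 17 tags in WT replicates 2, 4 and 6 and of 26, 13 and 32 tags in KO replicates 1, 2 and 4. KO replicates 1 and 4 stood above every WT library even in unscaled tags, while KO replicate 2, the shallowest library, lay below. The scaled heights were 0.393 ± 0.0658 in WT and 0.893 ± 0.217 in KO (SD, n = 3 each), a ratio of 2.28. Another 2 of the 4 shared regions at Rab4a were KO-taller, 1 outside the gene at 123797847 to 123798340 (7.51 kb away; ratio 1.52) and 1 inside it at 123807003 to 123807520 (ratio 1.73), within 9.67 kb in all. At this place the local background, which the peak caller estimates around each peak, was also higher in KO, with a scaled ratio of 1.97 at the leading region, against a median of 1.14 for KO-taller and 1.02 for other shared regions. The deposited fold enrichment of height over that background was 5.21, 6.08 and 4.81 in WT and 7.11, 5.15 and 7.17 in KO, so on that scale the groups overlapped and the log2 ratio was 0.44 in place of 1.19. For the region inside the gene it was 0.06 in place of 0.79, and for the one outside it 0.24 in place of 0.60.

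A distal region of chromosome 19 (59401935 to 59402841), 55.8 kb from its nearest protein-coding gene Emx2, a homeobox gene, was next. Its heights were 37, 36 and 43 tags in WT and 46, 37 and 51 in KO, in the same order of replicates, and only KO replicate 2 fell within the WT range before scaling. Scaled, these were 0.828 ± 0.0773 and 1.75 ± 0.0856 (SD, n = 3 each), a ratio of 2.11. The adjacent shared region, 59401288 to 59401866, was also KO-taller (ratio 1.61). The local background of the leading region was 1.84 times higher in KO, and with fold enrichment its log2 ratio was 0.43 in place of 1.08. Il33 lies on the same chromosome (29925113 to 29960718). The shared region at Il33 itself had a ratio of 1.19 and chromosome 19 as a whole held 23 KO-taller regions among 917 shared ones (2.51%).

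The next largest ratios belonged to low or middling regions outside promoters. A region 136 kb from Arhgef28 (chromosome 13, 97761809 to 97762635), a guanine nucleotide exchange factor gene, had heights of 23, 18 and 18 tags in WT and 19, 18 and 29 in KO (ratio 2.03), with a local background 1.70 times higher in KO. A region inside Zzz3 (chromosome 3, 152452693 to 152453412), which encodes a subunit of a histone acetyltransferase complex, had 8, 14 and 11 tags in WT and 17, 7 and 13 in KO (ratio 2.00). Inside Inpp4b (chromosome 8, 81502387 to 81503575), the gene of a phosphoinositide phosphatase, the heights were 19, 22 and 26 in WT and 26, 18 and 30 in KO. Their unscaled ranges overlapped, and the scaled values were 0.478 ± 0.0706 in WT and 0.954 ± 0.0506 in KO (SD, n = 3 each; ratio 2.00). Regions 103 kb from Tbl1xr1 (ratio 1.99), inside the beta spectrin gene Sptbn1 (1.98), inside the T-box gene Tbx20 (20, 16 and 19 tags in WT and 22, 14 and 21 in KO) and inside Cbl (1.86) followed. Cbl encodes a ubiquitin ligase that restrains T cell receptor signalling, and its region (chromosome 9, 44181568 to 44182582) had 20, 33 and 17 tags in WT and 23, 20 and 28 in KO. The 12 largest ratios ended with regions inside Calcrl (1.83), 68.4 kb from 2210010C04Rik (1.83) and inside Cspg4b (1.82). Of these 12 regions 1, at Rab4a, lay at a gene end, and none lay in bins 8 to 10. A single tag mattered, though not only at such heights. When 1 tag was subtracted from every KO height, a setting chosen after seeing the data, 461 of the 902 still met the rule, and with 2 tags subtracted 232 did. The library medians were left unchanged, so every ratio fell, and the median ratio of all shared regions was 0.990 with 1 tag subtracted. That setting kept 68.7% of the KO-taller regions of bin 10 and 47.2% of the rest.

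**Figure D3:**
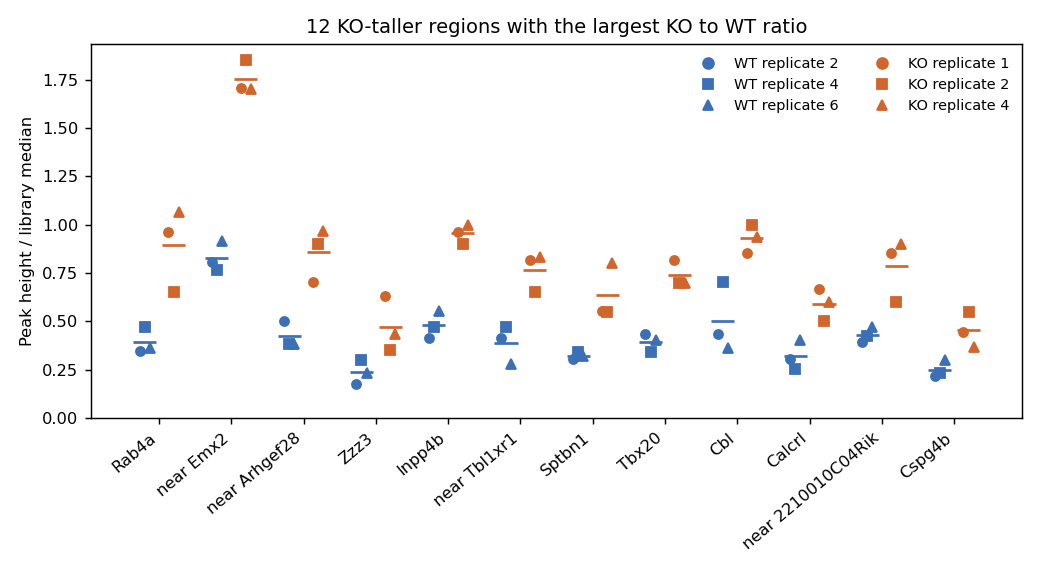
Scaled peak height in each of the 6 libraries at the 12 regions with the largest ratio of KO to WT mean, 1 point per library. The KO points lie above the WT points at each region, which the rule requires, and the spread of the 3 KO libraries is widest at Rab4a (SD 0.217).

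The tallest KO-taller regions were promoters of broadly expressed genes, with ratios close to the minimum. At Cic (chromosome 7, 25267120 to 25268689) the heights were 148, 145 and 163 tags in WT and 115, 98 and 126 in KO, and the scaled heights 3.26 ± 0.195 and 4.45 ± 0.388 (SD, n = 3 each; ratio 1.37). At Kat7 (chromosome 11, 95309316 to 95310945) they were 146, 143 and 157 in WT and 113, 99 and 128 in KO, scaled 3.19 ± 0.149 and 4.47 ± 0.42 (ratio 1.40). In tags every WT library stood above every KO library at both promoters, and scaling by the library median reversed that order. The same held at Cnot3 (ratio 1.33), Hnrnpc (1.36), Spag7 (1.3), the endosomal trafficking gene Mon1b (1.32), Ttc9c (1.32) and Ankhd1 (1.31), which complete the 8 tallest. Scaling to tags kept in place of the median gave log2 ratios of 0.50 at Cic and 0.53 at Kat7, close to the 0.45 and 0.49 with the median. Quantile normalization, which gives all libraries the same distribution of heights and so removes differences in their range, gave 0.10 at Cic and 0.15 at Kat7. Under it 0 of the 163 KO-taller regions of bin 10 met the rule, while 84.8% of the other 739 did.

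Outside the tallest bin, regions chosen as KO-taller by their tallest peak lay less often at gene ends than other shared regions did. Over all heights, 221 of 902 (24.5%, 95% Wilson interval 21.8% to 27.4%) lay within 1 kb of an end of a protein-coding gene, against 35.3% of the other shared regions and 22.6% of the WT-taller regions. Intervals cover counting error over regions only, which are not replicates of a genotype. Another 41.1% lay elsewhere in gene bodies and 34.4% between genes, against 35.5% and 29.1% of the other shared regions. In bins 2 to 9 the share at gene ends was 14.2% against 32.3% of the other regions and 25.2% of the WT-taller ones, and in bin 1 it was 3.87% against 9.81%. In bin 10 it was 82.8% against 85.7%, so the tall KO-taller regions were promoters about as often as other tall regions. Overlap with RefSeq promoter windows showed the same order, with 7.53% against 26.9% in bins 2 to 9 and 77.3% against 81.2% in bin 10. Without KO replicate 2 it was 13.9% over all heights and without KO replicate 4 it was 31.7%, against 33.3% and 34.1% of the other regions. The direction over all heights turned with fold enrichment (38.8% against 34.9%), with the sum of the heights of all peaks in a region (41.4% against 34.7%) and with a minimum ratio of 1.2 (44.2% against 34.1%). Outside bin 10 it was 11.6% against 29.9%, 26.1% against 29.5% with fold enrichment, 22.2% against 29.9% with the minimum of 1.2, and 30.3% against 29.4% with the sum of heights. The WT-taller shares there were 22.6%, 10.6%, 27.9% and 22.1% in the same order. The WT-taller regions thus lay at gene ends less often than the KO-taller ones with fold enrichment and with the sum of heights.

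Over all heights, the KO-taller regions of the main rule were farther from gene ends than the other shared regions. The median distance to the nearest gene end was 11.3 kb, against 6.01 kb for the other shared regions and 11.3 kb for the WT-taller ones. In bin 10 the median was 0 kb for both the KO-taller and the other regions. Distance was not read under the settings that turned the share at gene ends. More than 100 kb from a gene end, also inside long genes, lay 8.65% against 5.74% of the other shared regions. Their median width was 810 bp, against 840 bp for the other shared and 667 bp for the WT-taller regions, and 53.2% (Wilson interval 50% to 56.5%) were narrower than the shared median of 839 bp, against 49.8% and 75.2%. That direction turned with fold enrichment (40.7% against 50.3%), summed heights (30.6% against 50.7%), a minimum ratio of 1.2 (35.2% against 51.3%), windows of 200 bp around summits (34.9% against 50.3%) and without KO replicate 4 (47.5% against 50.1%). Regions with a single peak in every list made up 81.6% of the KO-taller and 83.9% of the other shared regions. The summits of the 6 libraries spanned a median of 114.5 bp in KO-taller and 76 bp in other shared regions, and lay within 100 bp of each other in 46.1% and 58.9%. WT-taller regions lay between, at 91.5 bp and 52.7%. In bin 10, 32.5% of KO-taller regions lay within 1 kb of the ends of 2 or more genes, against 24.0% of the others.

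KO-taller regions also lay next to each other more often than other shared regions did. Of the 902, 112 (12.4%) had another KO-taller region as an adjacent shared region, against 5.90% of the other shared regions, and for WT-taller regions the matching share was 10.2%. With regions less than 50 kb apart joined, 732 stood alone, 69 groups held 2, 8 held 3 and 2 held 4. One of the groups of 4 ran from Kat7 over Fam117a to Slc35b1, a nucleotide sugar transporter gene (chromosome 11, 95309316 to 95385313, 76.0 kb), and took 4 of its 5 shared regions. The other ran from Zfp526 and Dedd2 over Gsk3a, the gene of glycogen synthase kinase 3 alpha, and the repressor gene Erf to Cic (chromosome 7, 25218790 to 25268689, 49.9 kb), and took 4 of 6. Adjacent shared regions within 50 kb that did not meet the rule had a median ratio of 1.05 (1367 regions), close to the 1.03 of all shared regions. By chromosome the KO-taller share ran from 2.20% on chromosome 16 to 4.41% on chromosome 9. Of the RefSeq miRNA hairpins, 87 lay in shared regions and 2 of these, Mir7036b and Mir707, in KO-taller ones.

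In all, 689 of the 902 overlapped a protein-coding gene or its 10 kb flanks, which made 906 genes, of 13934 genes near a shared region. Genes with 3 or more KO-taller regions included long genes with many shared regions. Inpp4b had 4 of its 27 shared regions in the set, with ratios of 1.3 to 2.00. Foxp1, which encodes a forkhead factor of naive T cell quiescence, had 3 of 34, Ldlrad4, whose product restrains TGF-beta signalling, 3 of 19 (with 2 WT-taller regions beside them), and Arid1b, which encodes a subunit of the BAF chromatin remodelling complex, 3 of 16. Tgfbr3, the gene of the TGF-beta co-receptor betaglycan, had 3 of 7, at ratios of 1.36 to 1.56. Rab4a had 3 of 4, Fam117a 3 of 4, Gsk3a 3 of 4 and Neurl4 3 of 5, the last beside the translation factor gene Eif5a.

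Among Treg genes, few regions were KO-taller, and the share was near the 3.13% of all shared regions. Treg core genes held 4 among 131 shared regions, at Runx1, Izumo1r, Stat5a and Entpd1, with a list median ratio of 1.04. At the Runx1 promoter region (chromosome 16, 92824912 to 92826580) the heights were 77, 77 and 81 tags in WT and 55, 59 and 68 in KO, scaled 1.68 ± 0.0427 and 2.42 ± 0.475 (SD, n = 3 each; ratio 1.44). The wide KO spread there came with KO replicate 2, whose 59 tags stand against its median of 20. The region at Izumo1r, which encodes folate receptor 4, had a ratio of 1.34, the one shared by Stat3 and Stat5a, genes of cytokine signal transducers, 1.37, and the one at Entpd1, the gene of the ectoenzyme CD39, 1.3. Il2ra, Ctla4, Ikzf2 and Tnfrsf18, which encode CD25, CTLA-4, Helios and GITR, held 0 of their 5, 5, 8 and 4 shared regions. Their highest ratios were 1.31, 1.22, 1.18 and 1.17, and at the region of ratio 1.31 at Il2ra the scaled heights of WT and KO overlapped.

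Effector or tissue Treg genes held 3 among 112 shared regions (list median 1.01), at Tnfrsf9, Irf4 and Rora. Tnfrsf9 encodes the costimulatory receptor 4-1BB, and the region 4.76 kb from it (chromosome 4, 150950867 to 150951620) had 33, 29 and 26 tags in WT and 30, 21 and 34 in KO. Scaled, this was 0.629 ± 0.0828 and 1.10 ± 0.0432 (SD, n = 3 each), the largest ratio among the Treg lists at 1.75. Irf4 encodes a factor of effector Treg differentiation, and its KO-taller region (chromosome 13, 30747298 to 30747928), 1 of 5 shared there, had 71, 62 and 72 tags in WT and 60, 36 and 53 in KO, scaled 1.46 ± 0.126 and 1.93 ± 0.254 (ratio 1.32). In tags the groups did not overlap, with WT above KO, while the scaled order was the reverse. At Rora, a nuclear receptor gene, the ratio was 1.35. Gata3 held 0 of 6 and Batf 0 of 3, with highest ratios of 1.2 and 1.02.

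Genes from ST2 to NF-kB held few KO-taller regions, too few to place their share above or below the 3.13% of all shared regions. Of the 52 shared regions at genes from ST2 to the IKK complex, 0 were KO-taller and 1 was WT-taller, with a list median of 1.01, and Il1rl1 itself held 0 of 4 (ratios 0.886 to 1.15). NF-kB pathway genes held 2 of 95 (2.11%, list median 1.09). One lay 7.67 kb from Rel, the gene of the subunit c-Rel (chromosome 11, 23778635 to 23779344), with 31, 30 and 34 tags in WT and 28, 16 and 28 in KO (ratio 1.36). The other was the promoter of Map3k14, which encodes the kinase NIK of the non-canonical pathway (ratio 1.3). Nfkb1 held 0 of 7, with a highest ratio of 1.22.

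Genes of naive T cells and lymph node homing held 8 among 101 shared regions (7.92%), with a list median of 1.10 and no WT-taller region. These lay at 4 of the 15 genes with a shared region, Bach2, Foxp1 and Lef1 among them, so the count rests on few genes, 1 of them with 34 shared regions. Bach2 encodes a repressor of effector differentiation, and its 2 regions had ratios of 1.71 and 1.33. The first (chromosome 4, 32544871 to 32545571) was low, at 13, 12 and 16 tags in WT and 14, 9 and 16 in KO. The one of largest ratio among the 3 at Foxp1 (chromosome 6, 99428913 to 99429331) had 31, 28 and 35 tags in WT and 24, 18 and 45 in KO, scaled 0.671 ± 0.0745 and 1.10 ± 0.35 (ratio 1.63), and KO replicate 4 stood apart from the other KO libraries. Lef1 encodes an HMG-box factor, and the region inside it (chromosome 3, 131117339 to 131118418) had 44, 42 and 49 tags in WT and 39, 22 and 49 in KO (ratio 1.44). With the heights of all its peaks summed its log2 ratio was -0.01 in place of 0.53.

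The other T cell lists held few KO-taller regions, given here beside the 3.13% of all shared regions. T cell receptor signalling genes held 6 of 146 (4.11%, list median 1.07), at Cbl, Cd247, Prkcq, Ptpn6 and Themis. Activation transcription factors held 3 of 101 (2.97%, list median 1.10), at Bach2 and Irf4. The region in Cd247, the gene of the CD3 zeta chain, had a ratio of 1.44. Th17 genes held 3 of 46 (6.52%, median 0.989), at Rora, Stat3 and the receptor gene Il21r (ratio 1.62). Th1 genes held 0 of 37 and Th2 genes 0 of 31. Tbx21, the T-bet gene, held 0 of 2, and the single shared region at Ifng was WT-taller at a ratio of 0.740.

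Genes outside the T cell programs held KO-taller regions as well. Heat shock and stress genes held 4 of 37 (10.8%, list median 1.10), among them gene ends of Dnajb1 (ratio 1.35), Ubb (1.34) and Hspa8 (1.32), which encode an HSP40 chaperone, a polyubiquitin and the constitutive HSC70. These 3 lay in bin 10, where the rule took 5.66% of all regions. Ribosomal protein genes held 4 of 100 (median 1.11), at Rpl3, Rpl18 and Rps18, and the 3 with the largest ratios also lay at or near the neighbouring genes Syngr1 (1.56), Car11 with Dbp (1.37) and Wdr46 (1.34). Cell cycle genes held 2 of 63, the interferon response 1 of 42, at the RIG-I gene Ddx58 (1.32), and housekeeping genes 1 of 32. Actb held 0 of 2. Markers of other cells held 1 region among the 16 B cell, 4 CD8 T and NK, 13 myeloid and 9 melanoma ones, at Pmel in the promoter shared with Rab5b (1.33), and their list medians were 0.919, 0.923, 0.969 and 0.966.

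**Figure D4:**
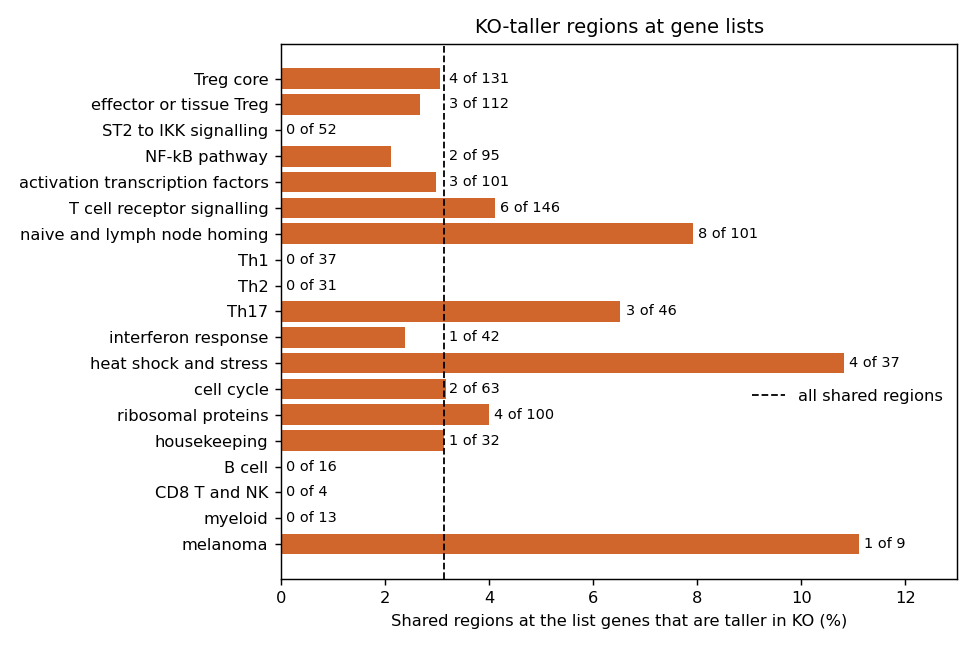
Percentage of shared regions that were KO-taller at each of the 19 gene lists, with the number of regions, beside the 3.13% of all shared regions. The lists furthest above it are melanoma (11.1%), heat shock (10.8%), naive and homing (7.92%) and Th17 (6.52%), with 1, 4, 8 and 3 regions. The list of genes from ST2 to IKK is at 0.

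The promoters among the KO-taller regions held CCAAT boxes more often than other promoters did, both in bin 10 and in bins 1 to 9 pooled. In the pooled bins most single bins held too few KO-taller promoters to compare. RefSeq promoter windows of 300 bases were searched on both strands for CCAAT, which reads ATTGG on the other strand. Of the 175 KO-taller regions that overlap a window, 119 (68.0%) held the box in any of their windows. This was so in 40.9% of the other shared regions with a window and 28.1% of the WT-taller ones. Counted by single windows, 58.8% of the 257 KO-taller windows and 37.3% of all autosomal windows held it. In bin 10 the window shares were 64.4% for KO-taller and 51.6% for other shared regions. The box was more frequent in tall regions as such, from 34.0% in bin 1 to 40.6% in bin 9 and 58.7% in bin 10. Within bin 10 it was found in 95 of 126 KO-taller promoter regions (75.4%) and in 57.7% of the others, and in bins 1 to 9 in 24 of 49 (49.0%) and 35.0%. The pooled shares are not matched for height. Bin 9 alone held 11 KO-taller promoter regions with the box and 7 without. Bins 3, 5 and 6 held 0 with the box and 3, 2 and 3 without. Read the other way, the rule took 6.94% of the bin 10 promoter regions with a box and 3.22% of those without.

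The difference in height behind this was small. In bin 10 the median ratio was 1.17 for the 1369 promoter regions with a box and 1.15 for the 964 without. With tags kept as the scale these were 1.2 and 1.18, and with quantile normalization, under which 0 of the 163 KO-taller regions of bin 10 met the rule, 1.0 and 0.995. Within each library, promoter regions of bin 10 with a box were taller than those without, by 1.03, 1.03 and 1.05 times in WT replicates 2, 4 and 6 and by 1.07, 1.05 and 1.06 times in KO replicates 1, 2 and 4, so that WT replicate 6 and KO replicate 2 did not differ at this precision. The regions with a box also differed in height within the bin, and the part of height in the difference between genotypes was not tested.

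**Figure D5:**
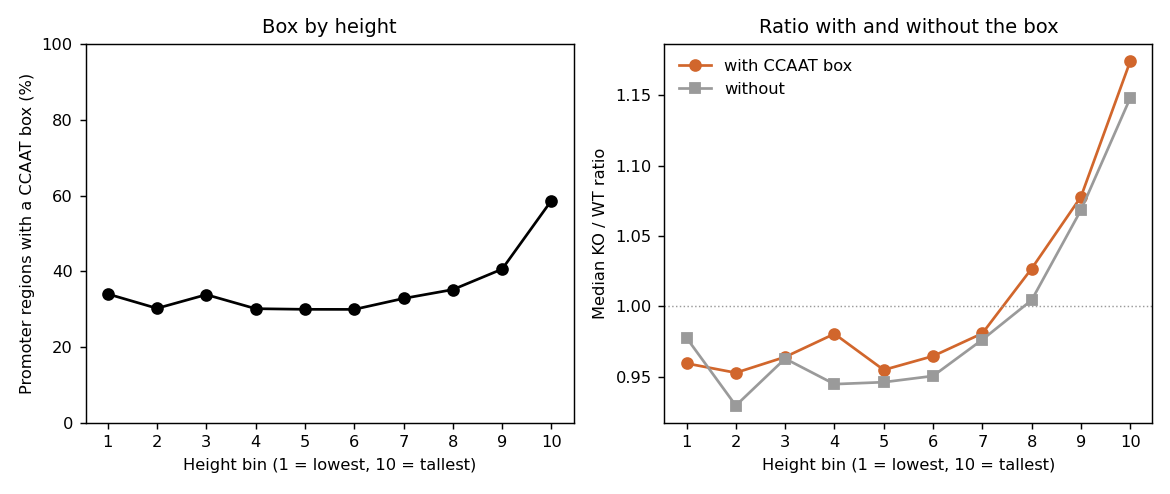
Percentage of shared promoter regions with a CCAAT box (left), and their median ratio of KO to WT scaled height with and without the box (right), in each of the 10 height bins from lowest to tallest. The share with a box is highest in bin 10 (58.7%), and both ratios, below 1 in bins 1 to 7, reach 1.17 and 1.15 there.

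Other promoter elements differed less or rested on few regions. In bin 10, AAGATGGC, a YY1 motif, was found in 12.7% of KO-taller and 7.61% of other promoter regions (2.75% of all autosomal windows), and GGGGCGGGG, the GC box of Sp and Klf factors, in 35.7% and 28.3% (11.6%). The ETS motif CCGGAAG was found in 23.8% and 26.9% (9.0%), and TGACGTCA, the cAMP response element, in 1.59% and 5.30% (1.83%). The NRF1 motif was found in 0 of 126 KO-taller regions and 2.08% of the others (0.968%), and the NF-kB motif in 0 of 126 and 0.408% (0.417%). AP-1 (TGANTCA) was at 3.97% and 4.67% (7.84%), RUNX (TGTGGTT) at 2.38% and 3.67% (5.32%), and the E-box CACGTG at 9.52% and 13.1% (7.14%). Values in brackets count single windows, while the others count regions with a match in any of their windows, so the 2 are not on the same footing. Both strands were searched for each, and motifs may overlap one another. The windows of KO-taller regions in bin 10 held a median of 22 CpG dinucleotides against 24 in the others. A match says that these letters lie in the window, not that a factor was bound there, and distal regions were not searched because no genome sequence of their places was used here.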

How the data were processed

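Peak lists of 6 ATAC-seq libraries were analysed, grouped by the genotype in the labels. Per the submitters' processing notes the tools included Bowtie2 2.3.1 and Picard 1.88 and the genome build was mm10. Per the file headers, each library had its own MACS 2.1.1.20160309 run without a control (q-value 0.05, 1 tag per position, 200 bp extension around the cut by a shift of -100 bp). The height used here is the deposited pileup signal at a summit, in tags and unscaled. Of the deposited significance values, the −log10 p-value was not used and the −log10 q-value served only a stricter threshold. Local background was recovered from the deposited fold enrichment, a ratio of height to background after 1 is added to each. Peak positions and lengths are as deposited. Depth was 4.72 to 15.2 M kept tags per library, and a height of 20 tags carries a large counting error.

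Peaks overlapping by at least 1 bp were merged, and the member rule was applied as stated in the opening of the results. Genes came from RefSeq gene spans on GRCm38.p6, which give neither strand nor exons, so both gene ends were used. Of 371 genes in 19 lists, 369 were matched. Regions were named as the 12 with the largest ratio, the 8 tallest, up to 3 for each gene list, the 2 on each side of the minimum ratio, those at genes with 3 or more members, and counts at 14 genes of Treg function, IL-33 signalling or control use. A few genes that the naming rule or the marker lists hold are not reported here. The member rule and the lists were chosen with earlier results of these data known. As genotype was used to choose the members, no test of it was run. Replicate numbers 2 and 4 occur in both genotypes, and the deviations of same-numbered libraries from their group means correlated at -0.02 and -0.05 over 28808 regions, so the numbers were not treated as pairs. The rule was also run on simulated data, but no outcome of that run is reported here. That run therefore does not show how often the rule takes regions without a true difference, or misses small ones, in these libraries. Alternatives were other scalings, thresholds, windows and left-out libraries. Calculations ran in Python 3.11.15 with pandas 2.3.3, NumPy 2.4.6, SciPy 1.17.1 and Matplotlib 3.10.9.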

Additional observations from a re-analysis of the deposited data

Results flagged for a closer look

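Chromosome X was left out by the rule, and 14 of its 611 shared regions (2.29%) met the same criteria there, against 18 for the mirrored rule and a median ratio of 1.0. These were flagged as a signal in data outside the main measurement. The largest ratio of them, 2.21, was at the promoter of Pgk1, which encodes a glycolytic kinase (chromosome X, 106186603 to 106187465). Its heights were 75, 64 and 82 tags in WT replicates 2, 4 and 6 and 89, 80 and 95 in KO replicates 1, 2 and 4, so the unscaled KO mean was above the WT mean although the KO libraries were shallower. The Pgk1 promoter is a common part of gene-targeting cassettes, and whether the Il33 allele carries one was not tested. The next were at Pdzd4 (1.66) and Il13ra1 (1.46).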

How the results depend on the processing

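The number of members was 902, with 860 for the mirrored rule. It was 509 with scaling by the 75th percentile, 2466 and 165 with minimum ratios of 1.2 and 1.5, 583 with peaks of −log10 q of at least 5, and 601 with windows of 200 bp around summits. With KO heights 1 or 2 tags lower it was 461 and 232. Leaving out each library in turn loosened the rule and gave 1003 to 1789 members (mirrored 1269 to 1584), the most without KO replicate 2 (1789), KO replicate 4 (1633) and KO replicate 1 (1478). With the replicate block, in which libraries 2 and 4 are paired across genotypes, it was 2248 (mirrored 1863). Of the 902, 627 met the rule with quantile normalization (768 members), 525 with tags kept (718), 541 with summed heights (1107) and 389 with fold enrichment (1077).

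The share of members within 1 kb of a gene end, 24.5% against 35.3% of other shared regions, was 38.8% with fold enrichment, 41.4% with summed heights, 18.7% with the 75th percentile, 9.64% with quantile normalization, 44.2% and 6.67% with the 1.2 and 1.5 ratios, 19.1% with summit windows, 28.4% within 2 kb, 19.4% for promoter windows and 11.6% outside bin 10. Without single libraries it was 13.9% (without KO replicate 2) to 31.7% (without KO replicate 4). The share of members narrower than the median shared region, 53.2% against 49.8% of the others, was in the same settings 40.7%, 30.6%, 61.7%, 69.7%, 35.2%, 77.0% and 34.9%, then 58.5% outside bin 10, and 47.5% to 63.5% without single libraries. The causes were not tested.

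Of 876 log2 ratios of 73 named regions under 12 alternatives, 832 moved by less than the spread between replicates and 43 by more. Only 1 changed sign, at Lef1 with summed heights (-0.00824). The 43 came with quantile normalization (18), fold enrichment (15) and summed heights (10). Leaving out 1 library kept the scaled heights of the others, which could hardly shift a mean by that spread. Those settings, with 73 of 73 values below it in each, therefore say little. Scaling by tags kept or by the 75th percentile, also with 73 of 73, only multiplies each library by a constant. The median ratio of all shared regions moved from 1.03 to 1.05 and 0.998 with them, so these settings say little as well. Settings with tags subtracted, without bin 10 and with left-out pairs were chosen after seeing the data. Depth limits low regions most, since 1 tag was 5% of the median in KO replicate 2.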
